A study of Homo sapiens with 6 samples.

Results

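The S100 and annexin genes were examined in RNA sequencing libraries of LoVo-HM and LoVo cells. Members were the rows of the gene table whose symbol starts with S100 and a letter or with ANXA and a digit, which gave 36 of 24580 rows. They comprised 21 S100 genes, 13 annexin genes, and S100PBP and ANXA2R, which carry a similar name but encode an S100P-binding protein and an ANXA2 receptor and are kept apart in the counts below. LoVo-HM is labelled a high-metastatic subline of LoVo, and LoVo, the wild type here, is an established human colorectal adenocarcinoma line; each had 3 libraries (6 in all), from untreated cells. The identity of the cells was not tested, and marker levels that bear on it are given below. The labels do not say how the subline was derived or whether the libraries of a line came from separate cultures, so p-values measure the spread between these libraries, which may be technical.

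S100 proteins are small calcium-binding proteins with a pair of EF-hand loops. Most work as dimers that open on binding calcium and then grip a target protein. Annexins bind acidic phospholipids of membranes when calcium rises, and several carry an N-terminal tail that docks an S100 dimer. In epithelial cells such pairs are known for linking membranes to the actin cytoskeleton, for membrane repair and for holding plasminogen at the cell surface.

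Levels are given in FPKM (fragments mapped to a transcript, divided by its length and by the mapped fragments of the library), a unit that can be compared between genes, and a level with ± is the mean and SD of the 3 libraries of a line. Library totals were 424624 to 428265 FPKM in LoVo-HM, against 434108 to 439082 FPKM in LoVo, and the read depth is unknown. Correlations of log2(FPKM + 1) over the tested genes were 0.991 to 0.993 within a group and 0.936 to 0.938 between groups, and no library stood apart. The colorectal label was checked on 14 epithelial markers. KRT8, KRT18, KRT19, EPCAM, CDH1 and CDX2 were present in all 6 libraries and KRT20 in LoVo-HM alone, whereas VIL1, CDX1 and GPA33 were listed at 0 in every library, and CEACAM5, CEACAM6, LGALS4 and CDH17 were too low to test. Of the 7 tested 5 were higher and 2, CDH1 and EPCAM, lower in LoVo-HM. CDH1 was at 7.91 ± 0.359 FPKM in LoVo-HM, against 48.0 ± 1.38 FPKM in LoVo. EPCAM was at 51.7 ± 2.60 FPKM in LoVo-HM, against 128 ± 1.99 FPKM in LoVo. Summed levels of the 14 were 2616 to 2721 FPKM in LoVo-HM, against 2017 to 2071 FPKM in LoVo. KRT8 and KRT18 held most of these sums, at 1348 and 859 FPKM in LoVo-HM, against 1199 and 549 FPKM in LoVo. Of 12 squamous or basal markers 11 were high enough to test, of which 2 were higher and 8 lower in LoVo-HM, against 21.8% and 23.1% of all tested genes. Both lines thus lacked several defining colorectal markers, and both had squamous or basal ones. KRT6A was at 151 ± 3.82 FPKM in LoVo, against 0.839 ± 0.588 FPKM in LoVo-HM. SOX2 was at 32.7 ± 0.0556 FPKM in LoVo, against 4.46 ± 0.0833 FPKM in LoVo-HM. KRT5 went the other way, at 395 ± 10.7 FPKM in LoVo-HM, against 39.9 ± 1.32 FPKM in LoVo. The identity of the lines was not tested, and the names LoVo-HM and LoVo follow the labels.

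Of the 34 S100 and annexin genes, 23 reached the mean of 0.5 FPKM needed for the test, 12 of them S100 genes and 11 annexins. Differences are LoVo-HM minus LoVo on the log2(FPKM + 1) scale with their SE, which understates changes of low genes. They were called at an adjusted p under 0.05 by limma, with Benjamini-Hochberg adjustment over all 14487 genes tested. In LoVo-HM 5 of the 23 rose, against a background of 21.8% of all tested genes, and 10 fell, against a background of 23.1%. Together 15 of 23 (65.2%) were called, where 44.9% of all tested genes were. The 15 include S100A5 and ANXA9, whose calls were lost under several alternatives, as given below. The median difference was 0.06 for S100 genes, -0.28 for annexins and 0.003 for all tested genes. For 16 of the 23 (69.6%) no LoVo-HM library lay within the LoVo range, nor the reverse, against 55% of all tested genes. Called differences of at least 1 on the log2(FPKM + 1) scale numbered 6, all of them decreases (ANXA8, ANXA8L1, S100A14, S100A16, ANXA1 and S100A11), where 4.18% of tested genes fell and 2.37% rose by that much. By the ratio of mean FPKM, 3 more called genes differed by over 2-fold, with S100P lower (4.93-fold) and S100A5 (3.05-fold) and ANXA6 (2.01-fold) higher in LoVo-HM. In bulk RNA fewer cells expressing a gene and less RNA per cell cannot be told apart.

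**Figure D1:**
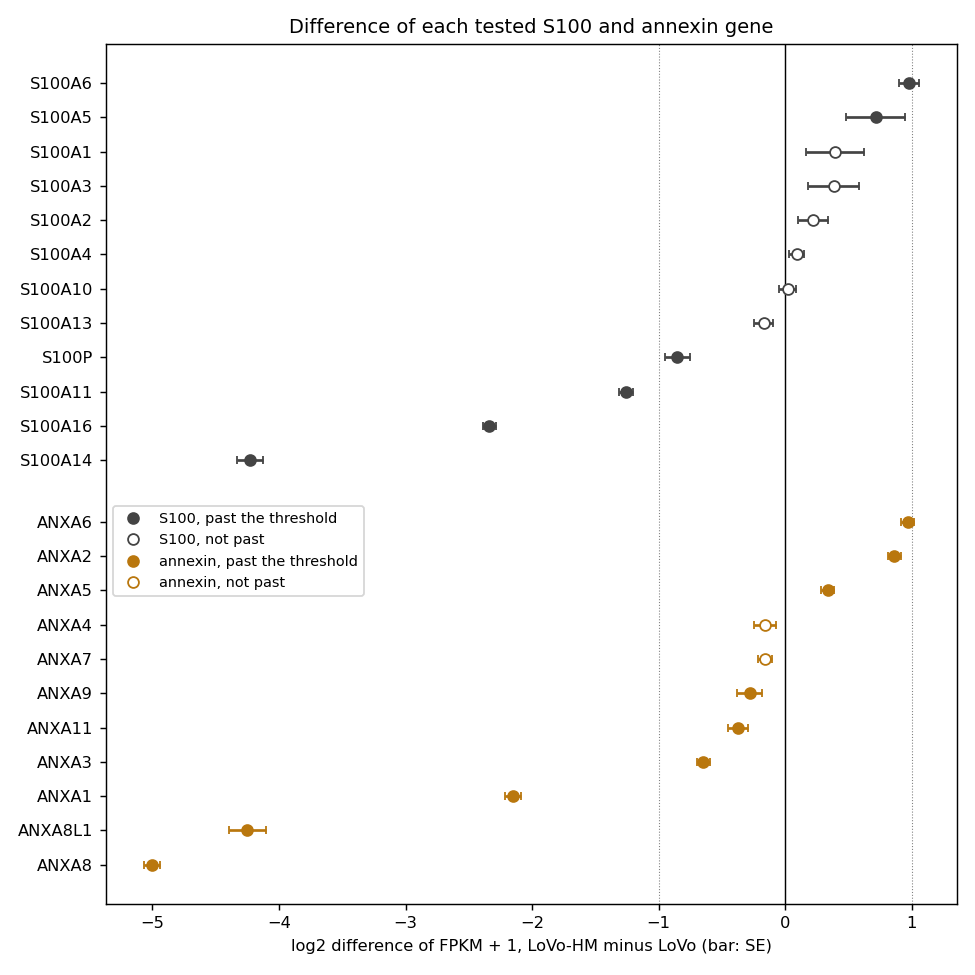
Log2 difference of FPKM + 1, LoVo-HM minus LoVo (points, with SE as bars), for the 12 tested S100 genes and the 11 tested annexins; filled points passed the threshold and dotted lines mark a log2 difference of 1 either way. The differences spread from -5.00 for ANXA8 to 0.98 for S100A6, with the 6 largest all below 0.

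The makeup of both families differed between the lines more than their totals did. Summed S100 levels were 810, 909 and 787 FPKM in LoVo-HM, against 809, 796 and 749 FPKM in LoVo, so that the groups overlapped. Summed annexin levels were 801, 765 and 849 FPKM in LoVo-HM, against 943, 937 and 899 FPKM in LoVo, with no overlap. S100A6 alone made up 69.7 ± 1.47% of the S100 sum in LoVo-HM and 37.5 ± 1.36% in LoVo (SD, n = 3 each). S100A11 held 7.38 ± 0.137% in LoVo-HM and 19.0 ± 0.919% in LoVo, and S100A16 held 3.06 ± 0.370% in LoVo-HM and 16.9 ± 0.618% in LoVo. Among annexins, ANXA2 held 61.8 ± 0.236% of the sum in LoVo-HM and 29.5 ± 1.16% in LoVo. ANXA1, which was the leading annexin in 2 of the 3 LoVo libraries, held 7.99 ± 0.337% in LoVo-HM and 31.2 ± 1.40% in LoVo. S100A6 led the S100 genes in every library, with a smaller share in LoVo.

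**Figure D2:**
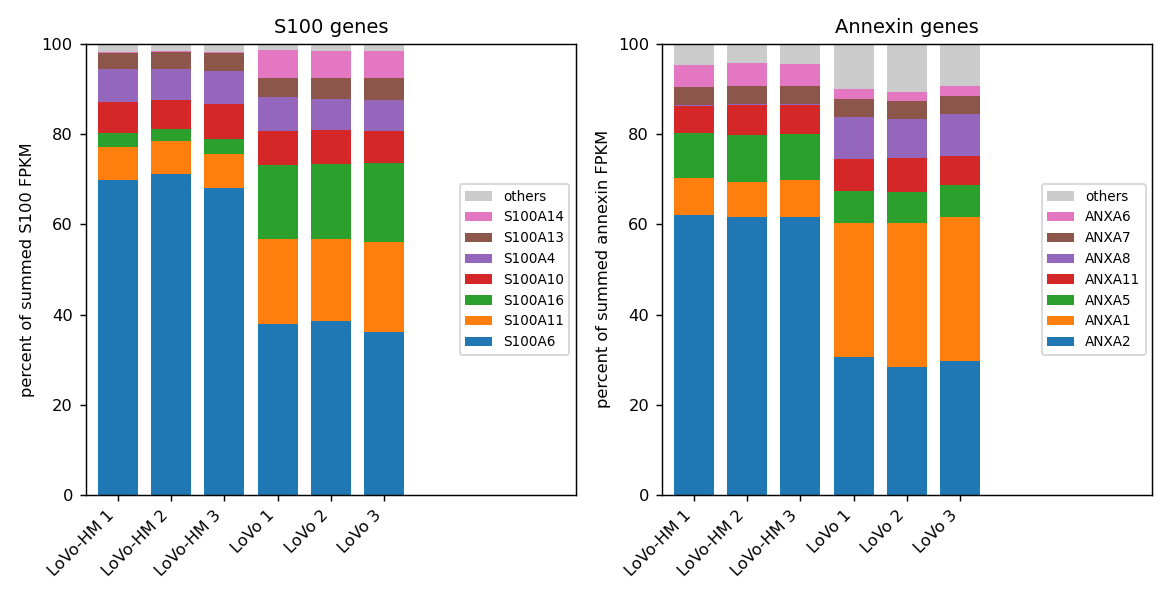
Share of the summed S100 FPKM (left) and of the summed annexin FPKM (right) held by the 7 leading genes of each family in every library, in percent, with the rest in grey. S100A6 and ANXA2 hold at least 68.1% and 61.6% of their family in each LoVo-HM library, and at most 38.6% and 30.6% in each LoVo library.

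S100A14 and S100A16 are neighbours in the S100 cluster of chromosome 1 and fell the most among S100 genes. S100A14, an epithelial S100 protein with an altered second EF-hand, lies at 153614255 to 153616986 on chromosome 1 (ENSG00000189334, GRCh38). Its level was 1.77, 1.21 and 1.86 FPKM in LoVo-HM, against 50.4, 47.0 and 45.6 FPKM in LoVo. Every LoVo-HM library was below every LoVo library, with a 29.5-fold lower mean (difference -4.23 ± 0.10, limma adjusted p = 8.81e-09). S100A16, a broadly expressed S100 protein, lies at 153606886 to 153613145 on chromosome 1 (ENSG00000188643). It was at 26.4, 23.9 and 25.9 FPKM in LoVo-HM, against 133, 132 and 132 FPKM in LoVo. The groups did not overlap, and the mean was 5.21-fold lower in LoVo-HM (-2.34 ± 0.05, limma adjusted p = 3.90e-09). The next genes in the cluster did not pass the test. S100A13, which takes part in the release of FGF1, was at 28.1, 34.3 and 32.6 FPKM in LoVo-HM, against 34.3, 37.9 and 34.9 FPKM in LoVo (-0.17 ± 0.08, limma adjusted p = 0.107). S100A2, an S100 protein of epithelial and basal cells, was at 11.4, 9.82 and 8.15 FPKM in LoVo-HM, against 7.51, 8.0 and 9.17 FPKM in LoVo (0.22 ± 0.12, limma adjusted p = 0.160). Both had overlapping groups. The difference of S100A13 was -0.09 without LoVo-HM replicate 1. S100A2 passed without LoVo-HM replicate 3 (limma adjusted p = 0.0350, with a span of 0.0350 to 0.454 over the alternatives).

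The promoter windows of these neighbours, 300 bases around a start site and mostly before it, are shown because these adjacent genes had the largest S100 decreases. They are RefSeq sequences of GRCh38.p14, both on the minus strand, at chr1:153616276-153616575 for S100A14 and chr1:153613088-153613387 for S100A16. Capitals mark matches on either strand to any of 4 motifs that were searched: AP-1 (TGANTCA), GC box (GGGCGG), E-box (CAGGTG) and TATA box (TATAAA).
S100A14: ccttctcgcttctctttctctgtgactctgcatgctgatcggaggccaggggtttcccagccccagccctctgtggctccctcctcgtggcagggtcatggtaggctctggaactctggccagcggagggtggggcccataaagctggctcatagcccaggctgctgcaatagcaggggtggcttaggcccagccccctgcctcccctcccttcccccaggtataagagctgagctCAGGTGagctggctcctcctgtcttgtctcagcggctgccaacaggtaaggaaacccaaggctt
S100A16: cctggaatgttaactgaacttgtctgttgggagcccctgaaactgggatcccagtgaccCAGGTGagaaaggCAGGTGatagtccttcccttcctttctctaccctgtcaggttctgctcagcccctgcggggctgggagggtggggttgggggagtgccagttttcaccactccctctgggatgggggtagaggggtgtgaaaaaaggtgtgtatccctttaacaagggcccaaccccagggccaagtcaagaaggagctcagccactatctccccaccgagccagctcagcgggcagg
S100A14 has 1 E-box match, starting at -14 from the start site, and S100A16 has 2, at -191 and -178. No match to the other 3 motifs lies in these windows. An E-box match was present in 20.6% of all 35116 promoter windows of the RefSeq table, an AP-1 match in 7.71%, a GC box match in 45% and a TATA box match in 11.5%. A match is a run of letters and not a measured binding site.

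Markers of squamous or basal epithelium, tissues where S100A14 and ANXA8 are known to be expressed, went both ways. Of 11 tested, 8 fell, 2 rose and 1 did not pass, where 23.1% of all tested genes fell and 21.8% rose. Among the members, S100A14, S100A16 and, as given below, ANXA8 and ANXA1 fell. S100A2, also of epithelial and basal cells, did not pass (0.22 ± 0.12, limma adjusted p = 0.160). The marker genes are named after their values were seen. Of the 11 tested, TP63, SOX2, SERPINB5, DSC3, DSG3, KRT6A, KRT6B and SFN fell and KRT5 and KRT14 rose. The transcription factor TP63 was at 0.296 ± 0.0605 FPKM in LoVo-HM, against 36.1 ± 1.71 FPKM in LoVo. KRT5, a basal keratin, was at 395 ± 10.7 FPKM in LoVo-HM, against 39.9 ± 1.32 FPKM in LoVo. The summed level of the 12 markers was 456 to 483 FPKM in LoVo-HM, against 508 to 526 FPKM in LoVo, and none was at 0 in all libraries. KRT5 held most of the LoVo-HM sum, and the median log2 difference of the 11 tested was -2.05. Fibroblast markers, whose cells express S100A4 and ANXA1, summed to 42.9 to 48.8 FPKM in LoVo-HM, against 10.5 to 12.9 FPKM in LoVo. Of these 10 markers 3 were tested: COL3A1, a fibrillar collagen, rose to 38.3 ± 2.38 FPKM in LoVo-HM, against 0.624 ± 0.102 FPKM in LoVo, ACTA2 fell and COL1A1 did not pass, with COL1A2 and FAP at 0 throughout. The 6 endothelial markers, 0 of them tested, summed to 0.319 to 0.475 FPKM in LoVo-HM, against 0.158 to 0.237 FPKM in LoVo, with KDR and PECAM1 at 0 throughout. The part of these markers in the results was not tested.

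S100A11 and S100P fell too. S100A11, which binds the tail of ANXA1 (chromosome 1, 152032506 to 152047907, ENSG00000163191), was at 58.7, 67.1 and 59.1 FPKM in LoVo-HM, against 151, 145 and 150 FPKM in LoVo. The groups did not overlap, and the mean was 2.41-fold lower in LoVo-HM (-1.26 ± 0.06, limma adjusted p = 4.65e-07). A pseudogene not analysed here, S100A11P1, matches 92.3% of 312 aligned transcript bases and could take reads from it. S100P, which binds ezrin and the receptor RAGE and is encoded on chromosome 4 (6693069 to 6697170), was low in both lines. Its level was 0.256, 0.266 and 0.250 FPKM in LoVo-HM, against 1.22, 1.32 and 1.26 FPKM in LoVo (-0.85 ± 0.10, limma adjusted p = 0.000172). The ratio of means was 4.93-fold, with no overlap.

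S100A6 was the highest S100 gene in every library, and rose. S100A6 (calcyclin, chromosome 1, 153534599 to 153536244, ENSG00000197956) is known to bind CACYBP and ANXA11. It was at 566, 646 and 536 FPKM in LoVo-HM, against 307, 307 and 270 FPKM in LoVo. The lowest LoVo-HM library was well above the highest LoVo library, and the mean was 1.98-fold higher in LoVo-HM (0.98 ± 0.08, limma adjusted p = 1.49e-05). It ranked 73 in mean level among all rows in LoVo-HM and 138 in LoVo. S100A5, a low S100 gene known from olfactory cells that lies next to S100A6, was at 1.45, 1.17 and 0.984 FPKM in LoVo-HM, against 0.202, 0.981 and 0 FPKM in LoVo. Its groups do not overlap but nearly touch, and the increase (0.72 ± 0.23, limma adjusted p = 0.0347) did not pass under 7 of 15 alternatives, among them leaving out any LoVo-HM library, LoVo replicate 1 or LoVo replicate 3, with limma adjusted p-values of 0.0017 to 0.102 over the 15.

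The other tested S100 genes did not pass. S100A4, also called metastasin, binds the heavy chain of non-muscle myosin IIA and is known for its association with metastasis. It was at 59.0, 62.9 and 57.0 FPKM in LoVo-HM, against 60.3, 54.5 and 53.1 FPKM in LoVo, with overlapping groups (0.09 ± 0.06, limma adjusted p = 0.260). S100A10, which does not bind calcium and forms a heterotetramer with ANXA2, was at 55.9, 58.7 and 60.8 FPKM in LoVo-HM, against 61.9, 59.1 and 52.4 FPKM in LoVo. Its difference was 0.02 ± 0.07 (limma adjusted p = 0.837), and its sign turned when LoVo-HM replicate 3 or LoVo replicate 3 was left out (-0.009 and -0.05). S100A1, a muscle S100 protein, averaged 1.85 ± 0.818 FPKM in LoVo-HM, against 1.13 ± 0.390 FPKM in LoVo (0.39 ± 0.23, limma adjusted p = 0.190). S100A3, known from the hair cuticle, averaged 1.23 ± 0.682 FPKM in LoVo-HM, against 0.667 ± 0.182 FPKM in LoVo (0.38 ± 0.20, limma adjusted p = 0.163). Each of these 2 passed when LoVo-HM replicate 1 was left out (limma adjusted p = 0.0165 for S100A1 and 0.0434 for S100A3, the lowest over their alternatives, with highest values of 0.474 and 0.471). S100A1 and S100A13 lie on opposite strands and share 235 exon bases, 7.76% of the exon bases of S100A1, and the strand setting of the counting is not given in the sources used here, so their values are uncertain. A non-coding gene not analysed here overlaps 24.2% of the exon bases of S100A13 on its own strand.

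The remaining 9 S100 genes were too low to test. S100A7, S100A7A and S100A7L2 (psoriasin and its relatives), S100A8 and S100A12 of myeloid cells, S100B of glia, S100G of vitamin D-responsive epithelium, and S100Z were listed at 0 in all 6 libraries. S100A9, which forms calprotectin with S100A8, was listed at 0 in 5 libraries and at 0.372 FPKM in LoVo replicate 2. The 12 leukocyte and myeloid markers were low as well, 1 of them tested (CD68, given below), with summed levels of 2.92 to 3.35 FPKM in LoVo-HM, against 4.0 to 4.33 FPKM in LoVo, and PTPRC, CD163, CSF3R and FCGR3B at 0 throughout.

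The chromosome 1 cluster runs from S100A10 to S100A1 (151982915 to 153632039, 1649 kb) and holds 17 of the 21 S100 genes, of which 11 were tested. The table has 47 other genes in this interval, mostly of the epidermal differentiation complex, and 0 of them reached the test. Their highest value was 0.137 FPKM in LoVo-HM, against 0.895 FPKM in LoVo, and 33 of the 47 were listed at 0 in every library. Within the cluster the tested genes went both ways. S100A6 and its neighbour S100A5 rose, S100A4, S100A3 and S100A2 did not pass, and S100A16 and S100A14 fell. The call of the low gene S100A5 was lost under several alternatives, as given above. S100A10 and S100A11, next to each other at the other end, had unlike results. The list of S100 fused-type and cornified envelope genes had 21 members in the table and 0 tested, with summed levels of 0.0617 to 0.137 FPKM in LoVo-HM, against 1.29 to 2.66 FPKM in LoVo.

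**Figure D3:**
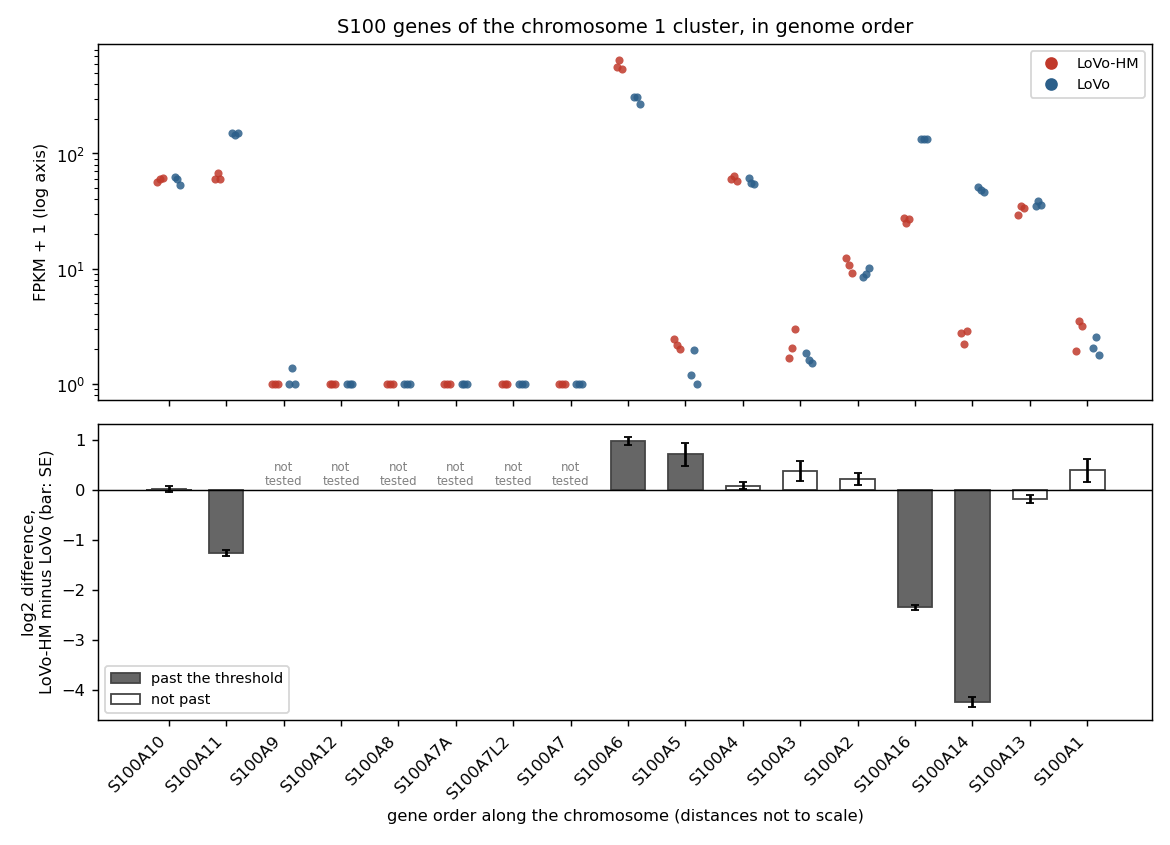
Level of each S100 gene of the chromosome 1 cluster in every library (top, FPKM + 1 on a log axis) and its log2 difference, LoVo-HM minus LoVo, with SE (bottom), in genome order. Increases stand at S100A6 and S100A5 (the call of S100A5 was lost under several alternatives), the largest decreases at S100A16 and S100A14, and 6 genes in the middle were too low to test.

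Among annexins, ANXA8 and its copy ANXA8L1 had the largest decreases. ANXA8, first described as a vascular anticoagulant (chromosome 10, 47460162 to 47484158, ENSG00000265190) was at 1.63, 1.56 and 1.75 FPKM in LoVo-HM, against 87.2, 80.5 and 84.3 FPKM in LoVo. The mean was 51.0-fold lower in LoVo-HM with no overlap (-5.00 ± 0.06, limma adjusted p = 3.64e-10). ANXA8L1 (chromosome 10, 46375627 to 46391784, ENSG00000264230) was at 1.45, 0.957 and 1.35 FPKM in LoVo-HM, against 45.6, 48.3 and 32.9 FPKM in LoVo (-4.25 ± 0.15, limma adjusted p = 7.50e-08). Their transcripts are 99.4% identical over 2174 aligned bases, so the split between them is uncertain. Their sum was 3.08, 2.52 and 3.10 FPKM in LoVo-HM, against 133, 129 and 117 FPKM in LoVo. This sum is free of that split only if both genes were given the same length and each shared read was counted once, which is not known.

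ANXA1, an annexin known for limiting inflammation through formyl peptide receptors (chromosome 9, 73151757 to 73170393, ENSG00000135046), was at 65.9, 58.2 and 69.1 FPKM in LoVo-HM, against 279, 300 and 288 FPKM in LoVo. The mean was 4.48-fold lower in LoVo-HM with no overlap (-2.15 ± 0.06, limma adjusted p = 2.98e-08). ANXA3, an annexin of secretory and myeloid cells, fell to 24.1, 22.7 and 24.8 FPKM in LoVo-HM, against 37.5, 38.6 and 37.7 FPKM in LoVo (-0.65 ± 0.05, limma adjusted p = 1.60e-05). ANXA11, which has a long tail and tethers RNA granules to lysosomes in neurons, fell to 48.1, 49.7 and 53.8 FPKM in LoVo-HM, against 67.9, 71.3 and 58.1 FPKM in LoVo (-0.37 ± 0.08, limma adjusted p = 0.00506). Neither gene had overlapping groups, with LoVo replicate 3 the nearest to LoVo-HM for ANXA11. ANXA9, whose core lacks working calcium sites, averaged 1.18 ± 0.143 FPKM in LoVo-HM, against 1.65 ± 0.151 FPKM in LoVo. Its call was marginal (-0.28 ± 0.10, limma adjusted p = 0.04997) and was lost under 13 of 15 alternatives, with adjusted p-values of 0.0209 to 0.138 over them.

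ANXA2, ANXA6 and ANXA5 rose. ANXA2, the partner of S100A10 (chromosome 15, 60347134 to 60402883, ENSG00000182718), was at 497, 472 and 523 FPKM in LoVo-HM, against 289, 265 and 266 FPKM in LoVo. The mean was 1.82-fold higher in LoVo-HM with no overlap (0.86 ± 0.05, limma adjusted p = 2.57e-06). A pseudogene not analysed here, ANXA2P2, matches 98.4% of 1020 aligned transcript bases, so part of the ANXA2 value is uncertain. ANXA6, an annexin built of a doubled core (chromosome 5, 151100712 to 151157882), was at 39.3, 38.7 and 41.0 FPKM in LoVo-HM, against 20.8, 19.5 and 19.1 FPKM in LoVo. Its mean was 2.01-fold higher in LoVo-HM (0.97 ± 0.05, limma adjusted p = 1.49e-06). ANXA5, which binds exposed phosphatidylserine, was at 79.0, 81.0 and 87.6 FPKM in LoVo-HM, against 67.6, 65.0 and 63.1 FPKM in LoVo (0.33 ± 0.05, limma adjusted p = 0.000971). All 3 had every LoVo-HM library above every LoVo library.

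ANXA4 and ANXA7 did not pass. ANXA7 (synexin), which promotes membrane fusion in vitro, was at 32.7, 30.8 and 35.2 FPKM in LoVo-HM, against 36.7, 36.6 and 36.8 FPKM in LoVo. The groups did not overlap, but the difference of -0.16 ± 0.06 missed the threshold (limma adjusted p = 0.0508), and it passed where only genes averaging 2 FPKM or more were tested (0.0480) and when LoVo-HM replicate 3 was left out (0.0143), with 0.0143 to 0.140 over the alternatives. ANXA4, an annexin of epithelia, averaged 9.60 ± 1.14 FPKM in LoVo-HM, against 10.8 ± 0.421 FPKM in LoVo (-0.16 ± 0.09, limma adjusted p = 0.178), and its difference was -0.07 without LoVo-HM replicate 2. ANXA13, the annexin of intestinal epithelium, was listed at 0 in all 6 libraries. ANXA10, known from stomach epithelium, was listed at 0 in the 3 LoVo-HM libraries and at 0, 0.0322 and 0.143 FPKM in LoVo. Of the genes with a similar name, S100PBP averaged 8.20 ± 0.882 FPKM in LoVo-HM, against 6.82 ± 0.655 FPKM in LoVo (0.23 ± 0.09, limma adjusted p = 0.0761), and passed with quantile normalization (0.0344) and without LoVo-HM replicate 1 (0.0436), with 0.0344 to 0.224 over the alternatives. ANXA2R was too low to test, at 0.592, 0.353 and 0.257 FPKM in LoVo-HM, against 0.405, 0.217 and 0.471 FPKM in LoVo.

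**Figure D4:**
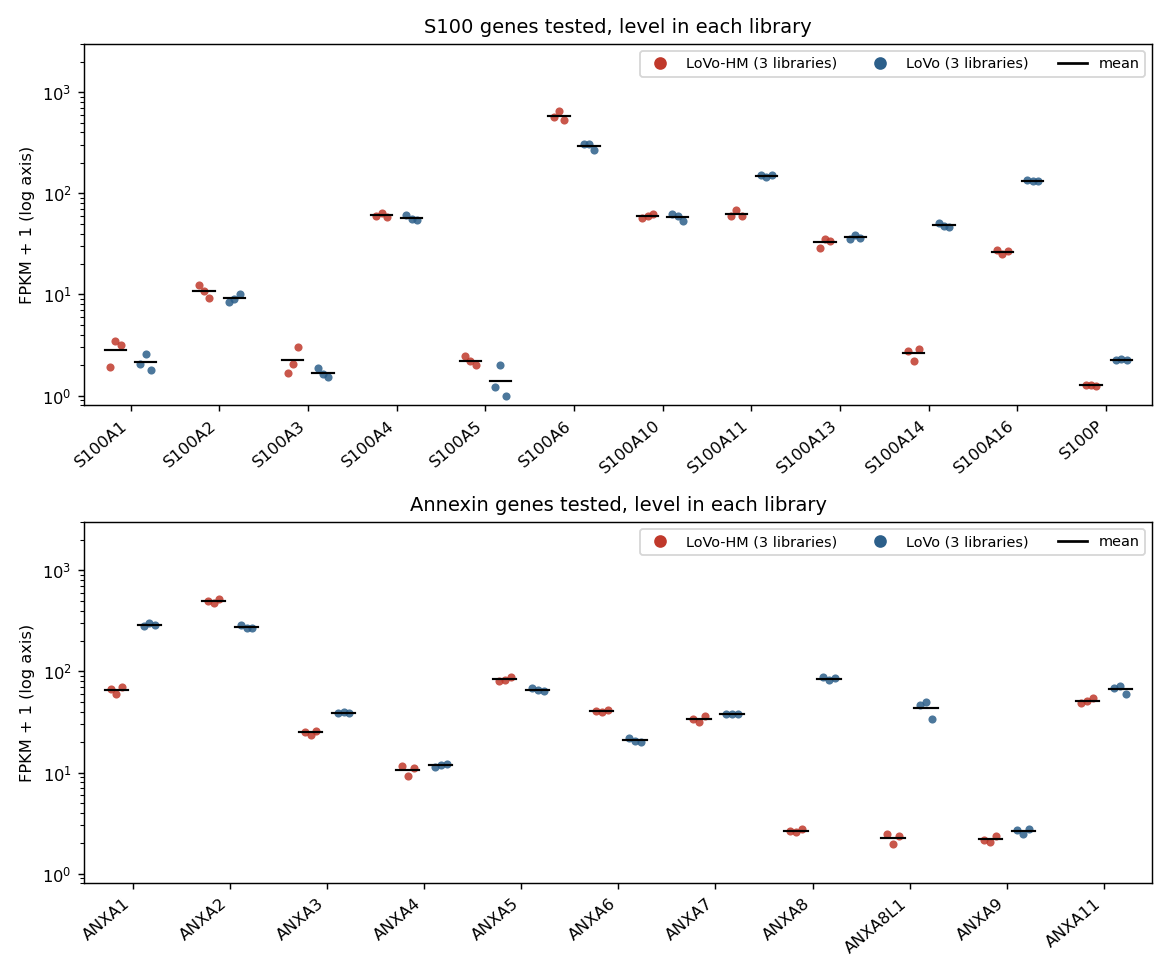
Level of each tested S100 gene (top) and annexin (bottom) in every library, as FPKM + 1 on a log axis, with LoVo-HM left of LoVo and a black line at the mean. S100A6 and ANXA2 are at least 536 and 472 FPKM in every LoVo-HM library, and S100A14, ANXA8 and ANXA8L1 are at most 1.86 FPKM there and at least 32.9 FPKM in every LoVo library.

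Promoter windows of 4 members with large or abundant changes are shown beside those above, to set genes that fell (ANXA8L1, ANXA1) against genes that rose (S100A6, ANXA2). They come from the same RefSeq table at chr10:46375526-46375825 (plus strand) for ANXA8L1, chr9:73151615-73151914 (plus) for ANXA1, chr1:153535942-153536241 (minus) for S100A6 and chr15:60397937-60398236 (minus) for ANXA2, with capitals for the same 4 motifs.
ANXA8L1: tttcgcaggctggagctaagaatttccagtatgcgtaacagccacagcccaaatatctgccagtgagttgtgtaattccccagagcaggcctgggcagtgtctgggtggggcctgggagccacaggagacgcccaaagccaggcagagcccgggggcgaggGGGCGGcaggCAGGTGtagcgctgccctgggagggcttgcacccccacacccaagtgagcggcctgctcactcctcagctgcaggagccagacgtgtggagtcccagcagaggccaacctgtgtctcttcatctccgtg
ANXA1: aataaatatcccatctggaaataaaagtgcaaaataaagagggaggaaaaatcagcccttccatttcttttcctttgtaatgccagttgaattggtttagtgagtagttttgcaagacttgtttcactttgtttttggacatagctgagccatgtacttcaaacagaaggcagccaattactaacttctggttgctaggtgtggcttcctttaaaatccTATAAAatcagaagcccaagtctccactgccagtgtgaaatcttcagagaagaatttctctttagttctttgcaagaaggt
S100A6: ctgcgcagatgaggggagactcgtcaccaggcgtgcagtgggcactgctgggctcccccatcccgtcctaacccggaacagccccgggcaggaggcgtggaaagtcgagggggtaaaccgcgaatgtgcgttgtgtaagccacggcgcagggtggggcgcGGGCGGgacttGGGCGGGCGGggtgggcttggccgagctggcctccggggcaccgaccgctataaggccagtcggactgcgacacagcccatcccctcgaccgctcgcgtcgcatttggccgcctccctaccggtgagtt
ANXA2: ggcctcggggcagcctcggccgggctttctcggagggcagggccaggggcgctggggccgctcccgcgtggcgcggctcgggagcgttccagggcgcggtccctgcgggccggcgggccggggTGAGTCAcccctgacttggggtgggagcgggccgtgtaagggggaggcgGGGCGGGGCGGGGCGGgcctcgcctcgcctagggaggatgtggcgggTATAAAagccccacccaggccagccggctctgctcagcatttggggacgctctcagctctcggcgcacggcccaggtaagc
ANXA8L1 has a GC box match at -89 and an E-box match at -79, and ANXA1 has a TATA box match at -31. S100A6 has 3 GC box matches, at -90, -79 and -75, the last 2 overlapping. ANXA2 has an AP-1 match at -127, 3 overlapping GC box matches from -78 and a TATA box match at -31. Of 36 members 32 had a promoter in the table, with 46 windows among them, and only the nearest to the start of each gene is counted below. Among the 23 tested S100 and annexin genes, 22 had one, and the window nearest to the start of the gene held an E-box match in 6 of 9 genes that fell, 0 of 5 that rose and 2 of 8 that did not pass. A GC box match was in 3 of those that fell, 4 that rose and 5 that did not pass. Over all 35116 promoter windows of the RefSeq table, 20.6% held an E-box match and 45% a GC box match. The 0 of 5 for the E-box holds for the nearest window only. Further windows of S100A5 and ANXA6, which rose, and of S100A2 and ANXA4, which did not pass, held an E-box match. Genes that fell without an E-box match had no further window. The windows were chosen and read with the differences known, so these counts are a description only.

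Known S100 and annexin pairs were set against each other within each library, as ratios of FPKM. The S100A10 to ANXA2 ratio was 0.112, 0.124 and 0.116 in LoVo-HM, against 0.214, 0.223 and 0.197 in LoVo. In both lines ANXA2 mRNA exceeded S100A10 mRNA several-fold, and the ratio was lower in every LoVo-HM library (difference of the log2 ratio -0.84). The S100A11 to ANXA1 ratio was 0.890, 1.15 and 0.856 in LoVo-HM, against 0.542, 0.484 and 0.520 in LoVo (0.89). Both partners fell, ANXA1 by more. The S100A6 to ANXA11 ratio was 11.8, 13.0 and 9.97 in LoVo-HM, against 4.52, 4.31 and 4.64 in LoVo (1.35), with S100A6 higher and ANXA11 lower in LoVo-HM. None of the 3 ratios overlapped between the groups. The two-sided exact permutation test gave p = 0.1 for each and 0.1 after Benjamini-Hochberg adjustment over the 3 pairs, which is the smallest that 3 libraries against 3 can give. S100A8 and S100A9 were too low for a ratio. These are ratios of mRNA and not of protein or of complexes. The pseudogenes given above for ANXA2 and S100A11 leave the ratios with these genes uncertain in part.

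**Figure D5:**
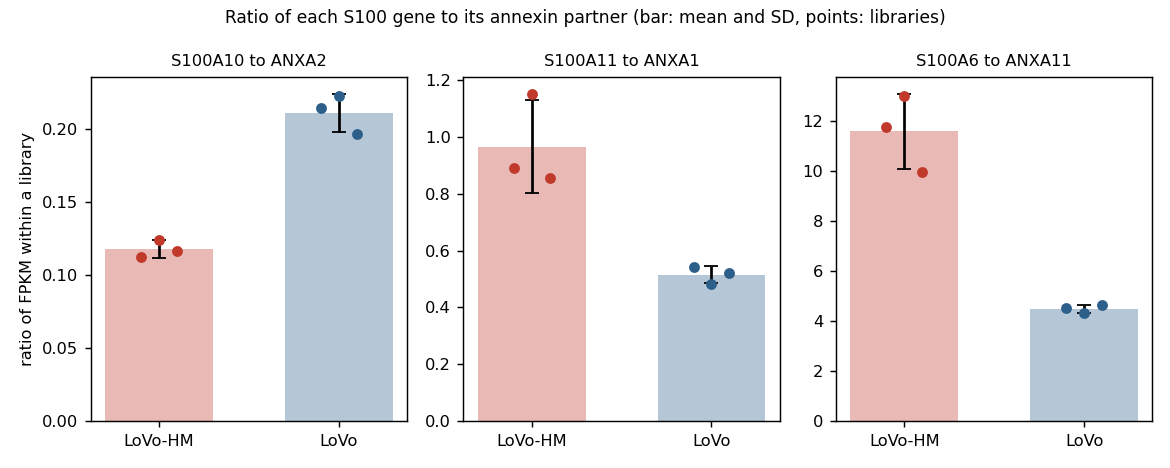
Ratio of the FPKM of each S100 gene to that of its annexin partner within a library (points), with mean and SD as bars, LoVo-HM left of LoVo. The S100A10 to ANXA2 ratio is at most 0.124 in LoVo-HM and at least 0.197 in LoVo, and the other 2 ratios are higher in LoVo-HM.

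Other proteins known to act with S100 proteins and annexins went both ways. Of 30 listed interaction partners 24 were tested, of which 6 rose, 10 fell and 8 did not pass, with a median difference of -0.06. The share called (66.7%) stands against the 44.9% of all tested genes. Myoferlin (MYOF), a membrane repair protein related to dysferlin, fell to 46.2 ± 2.19 FPKM in LoVo-HM, against 144 ± 4.49 FPKM in LoVo (-1.62 ± 0.05, limma adjusted p = 3.36e-08). The calcium-dependent proteases CAPN1 and CAPN2 fell by 1.29 ± 0.05 and 0.87 ± 0.05 on the log2 scale. Cathepsin B (CTSB), a lysosomal protease found with the ANXA2 and S100A10 complex on tumour cells, fell by 0.76 ± 0.07. PLAT, which encodes the tissue plasminogen activator, rose to 2.95, 2.14 and 2.76 FPKM in LoVo-HM, against 0.314, 0.589 and 0.447 FPKM in LoVo (1.32 ± 0.13, limma adjusted p = 5.12e-05), while the plasminogen receptor gene PLGRKT fell by 0.65 ± 0.06. AHNAK, a giant scaffold bound by ANXA2 and S100A10, did not pass, at 75.6 ± 2.24 FPKM in LoVo-HM, against 72.2 ± 3.01 FPKM in LoVo (0.06 ± 0.05, limma adjusted p = 0.303).

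Partners named after their values were seen are CACYBP (target of S100A6), MYH9 (target of S100A4) and EZR (target of S100P). CACYBP and MYH9 did not pass, with differences of -0.008 ± 0.07 and -0.06 ± 0.04, and EZR rose by 0.16 ± 0.03 (limma adjusted p = 0.00575). Of 12 receptors 7 were tested, of which 3 rose, 3 fell and 1 did not pass (85.7% called, against 44.9% of all tested genes). BSG, a glycoprotein that binds S100A9, rose to 563 ± 13.8 FPKM in LoVo-HM, against 454 ± 18.3 FPKM in LoVo (0.31 ± 0.04, limma adjusted p = 0.000391). ALCAM rose by 0.45 ± 0.05 and AGER, which encodes RAGE, by 0.54 ± 0.14 (limma adjusted p = 0.0140). The collagen receptor DDR1 fell to 21.2 ± 2.31 FPKM in LoVo-HM, against 82.3 ± 4.89 FPKM in LoVo (-1.91 ± 0.08). CD36 fell by 0.52 ± 0.06 and CD68 by 0.32 ± 0.09. The call of CD68 was lost with quantile normalization (limma adjusted p = 0.0793) and without LoVo-HM replicate 1 (0.0518). The formyl peptide receptor genes FPR1, FPR2 and FPR3, together with TLR4 and ERBB4, were listed at 0 in all 6 libraries (named after their values were seen).

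Calmodulin and the other EF-hand sensors were compared to see the S100 genes among related calcium-binding proteins. Of 26 listed genes 18 were tested, of which 5 rose, 6 fell and 7 did not pass, with a median of 0.02 (61.1% called, against 44.9% of all tested genes). Calbindin (CALB1) fell to 55.6 ± 2.41 FPKM in LoVo-HM, against 285 ± 36.2 FPKM in LoVo (-2.33 ± 0.08, limma adjusted p = 9.13e-08). Visinin-like 1 (VSNL1) fell by 2.95 ± 0.09 and grancalcin (GCA) by 0.79 ± 0.09. Calmodulin 2 (CALM2) rose to 256 ± 0.725 FPKM in LoVo-HM, against 205 ± 4.76 FPKM in LoVo (0.32 ± 0.04, limma adjusted p = 0.000135). NCS1 rose by 0.31 ± 0.06 and EFHD1 by 0.63 ± 0.14.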

How the data were processed

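RNA was extracted with Trizol and made into Illumina TruSeq libraries, per the labels' protocols. FPKM values, 1 per gene and library, were computed and deposited by the authors. Per the submitters' processing notes they rest on GRCh38. Which aligner, counter, annotation and strand setting were used is not given in the sources used here. Low values (below 0.3 FPKM) showed no steps worth 1 read: of 1554 ratios between LoVo replicates 1 and 2, the commonest bin of 0.05 log2 units held 3.35%. No counting intervals are therefore given.

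Values were used as deposited, as log2(FPKM + 1), for the 14487 genes averaging 0.5 FPKM or more. The lines were compared with limma 3.58.1 (R 4.3.3), a variance trend and two-sided tests, with Benjamini-Hochberg adjusted p under 0.05. The fit was tested on simulated data. Pair ratios used exact permutation tests. Positions and transcripts are from GENCODE 29 and promoters from RefSeq. All 36 members had a GENCODE entry. Members and lists were chosen with earlier results of these data known. A marker of the colorectal list is not reported here, and its counts and sums leave it out. Every member is named; of each list, up to 6 tested genes with the smallest p, and AHNAK, AGER and PLAT. The rule also allowed up to 4 other genes within the chromosome 1 cluster, where no other gene was tested. The closing section gives alternatives: other pseudocounts, filters, scalings and variance fits, a replicate block and leaving out each library.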

Additional observations from a re-analysis of the deposited data

How the results depend on the processing

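The called decreases of S100A11, S100A14, S100A16, S100P, ANXA1, ANXA3, ANXA8, ANXA8L1 and ANXA11 and the called increases of S100A6, ANXA2, ANXA5 and ANXA6 kept their direction and passed in every one of the 16 alternatives that tested them. The number of S100 genes called higher was 2 and became 1 with a pseudocount of 0.1, without a filter on low values and with a minimum mean of 2 FPKM, where S100A5 was not called or not tested, and ranged from 1 to 3 when 1 library was left out. S100A10, never called, had a difference of 0.02, which ranged from -0.0484 (without LoVo replicate 3) to 0.0696 when 1 library was left out and was -0.00937 without LoVo-HM replicate 3. The 3 pair ratios kept their direction throughout; with the replicate block their smallest possible p is 0.25, which each reached. With the replicate block 3131 genes were higher and 3328 lower over the whole table, against 3161 and 3347 without it; among members it added S100A13 (limma adjusted p = 0.0448, with 0.0448 to 0.326 over all alternatives) and lost ANXA9 (0.0629). Same-numbered libraries share only a number: their deviations from the group means had correlations of -0.007, 0.02 and 0.03, and not every library correlated best with its own number. Read depth is unknown, and members below about 2 FPKM (S100A1, S100A3, S100A5, S100P and ANXA9) have the lowest levels.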
